A study of Homo sapiens with 9 samples.

Results

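The 43 genes described here are human regulators of mesoderm and mesenchyme, with a few that are best known from other tissues, mostly neural ones. They were chosen by gene symbol, as members of a list of developmental transcription factors known as targets of Polycomb repressive complex 2 (PRC2) and not by a measured threshold, though with earlier results of these data known. All 43 symbols were found among the 40332 gene symbols of the count table. The cells were wild-type H1, an established line of human embryonic stem cells, and RNA-seq was made from 9 libraries in 3 groups of 3. The sample titles trace all 3 groups to naive culture, and only the third was still in medium for naive cells. In the first group the cells were in N2B27, a basal medium with no added self-renewal factors, with 5 µM EPZ-6438 for 3 days. EPZ-6438 (tazemetostat) is an inhibitor of EZH2, the enzyme of PRC2. The second group was in N2B27 alone, for a time that no label gives, and the third was in PXGL, the medium that maintains naive human cells with inhibitors of MEK, tankyrase and PKC and the cytokine LIF. Cells with EPZ-6438 therefore differed from N2B27 cells by the inhibitor and possibly by the time in N2B27, which cannot be told apart, and from PXGL cells by the medium and the inhibitor together.

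Transcription factors of this kind are switched on as the epiblast passes through the primitive streak and its mesoderm spreads into extraembryonic, lateral, intermediate and paraxial parts, and again when mesenchyme forms in the limb, face and gut. In pluripotent cells their promoters, which are mostly rich in CG dinucleotides, commonly carry H3K27me3, the histone mark that PRC2 deposits, and the genes are kept low or silent until a lineage is entered. H3K27me3 was not measured in these 9 libraries.

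Library totals were 14719626 to 16479602 counts with EPZ-6438, 14482105 to 15295208 in N2B27 and 17499688 to 18358530 in PXGL. Levels are CPM, counts scaled to a common library size with TMM factors, and a gene was called when its Benjamini-Hochberg adjusted p was under 0.05 in edgeR's quasi-likelihood test across all 15179 genes tested. All 8 pluripotency markers examined had counts in every group, with summed levels of 5310 to 5340 CPM with EPZ-6438, 6570 to 6600 CPM in N2B27 and 4140 to 4530 CPM in PXGL. The sums did not hold for each marker, as SOX2 averaged 63.6 CPM with EPZ-6438, 117 CPM in N2B27 and 133 CPM in PXGL. All 8 were lower with EPZ-6438 than in N2B27, a comparison with 10.6% of all tested genes lower. The differences ran from 1.16-fold for LIN28A (adjusted p = 0.00878) to 1.83-fold for SOX2 (adjusted p = 5.53e-07). Against PXGL, 5 of the 8 were higher and 2 lower with EPZ-6438, with 28.1% of all tested genes higher and 28.0% lower. The part of these differences in the levels of the regulators was not tested. Replicate 1 of PXGL stood apart, with a chi-square per degree of freedom of 19.6 and 26.3 against the other PXGL libraries and 3.41 between those. Without it, 18 regulators were called between EPZ-6438 and N2B27, 19 between EPZ-6438 and PXGL and 17 between N2B27 and PXGL. Since no label states that the replicates were grown separately, the p-values reflect library-to-library spread, which may be technical. In bulk RNA, fewer cells that express a gene and less of its RNA per cell cannot be told apart.

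Of the 43 regulators, 28 had enough counts to be tested, as did 15179 of all 40332 genes. With EPZ-6438 against N2B27, 17 were higher, 1 was lower (IRX2) and 10 were not called. The background in this comparison was 24.7% of all tested genes called, 14.2% higher and 10.6% lower, against 64.3%, 60.7% and 3.57% of the tested regulators. The median log2 difference was 1.23 over the 28 regulators and 0.007 over all tested genes. A low gene passes the filter if 1 group alone is high enough, so these shares hold for the tested regulators and not for all 43. Without replicate 1 of PXGL the background was 5770 genes called in place of 3752, while 18 regulators were called as before. Against PXGL, 13 regulators were higher with EPZ-6438, 6 were lower and 9 were not called, where the background was 56.1% called, 28.1% higher and 28.0% lower. In N2B27 against PXGL, 5 were higher, 13 were lower and 10 were not called, where the background was 56.0% called, 27.3% higher and 28.7% lower. The shares called of the 28 were 67.9% and 64.3% in these comparisons, which lie nearer to their backgrounds than in the comparison of EPZ-6438 with N2B27. By direction, 46.4% were higher and 21.4% lower with EPZ-6438 than in PXGL, with a median log2 difference of 0.546. In N2B27 against PXGL 17.9% were higher and 46.4% lower, with a median of -0.68. Over all tested genes these medians were -0.001 and -0.028. When a change of over 1.5-fold was required, FOXC2, FOXD1, DLX3, IRX1, IRX2, SIM2 and TLX3 were no longer called between EPZ-6438 and N2B27, ISL1 and NKX2-5 between EPZ-6438 and PXGL, and TWIST1, WT1, IRX1 and IRX2 between N2B27 and PXGL. The 3 comparisons share libraries, so their values are given side by side below and are not independent of each other.

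**Figure D1:**
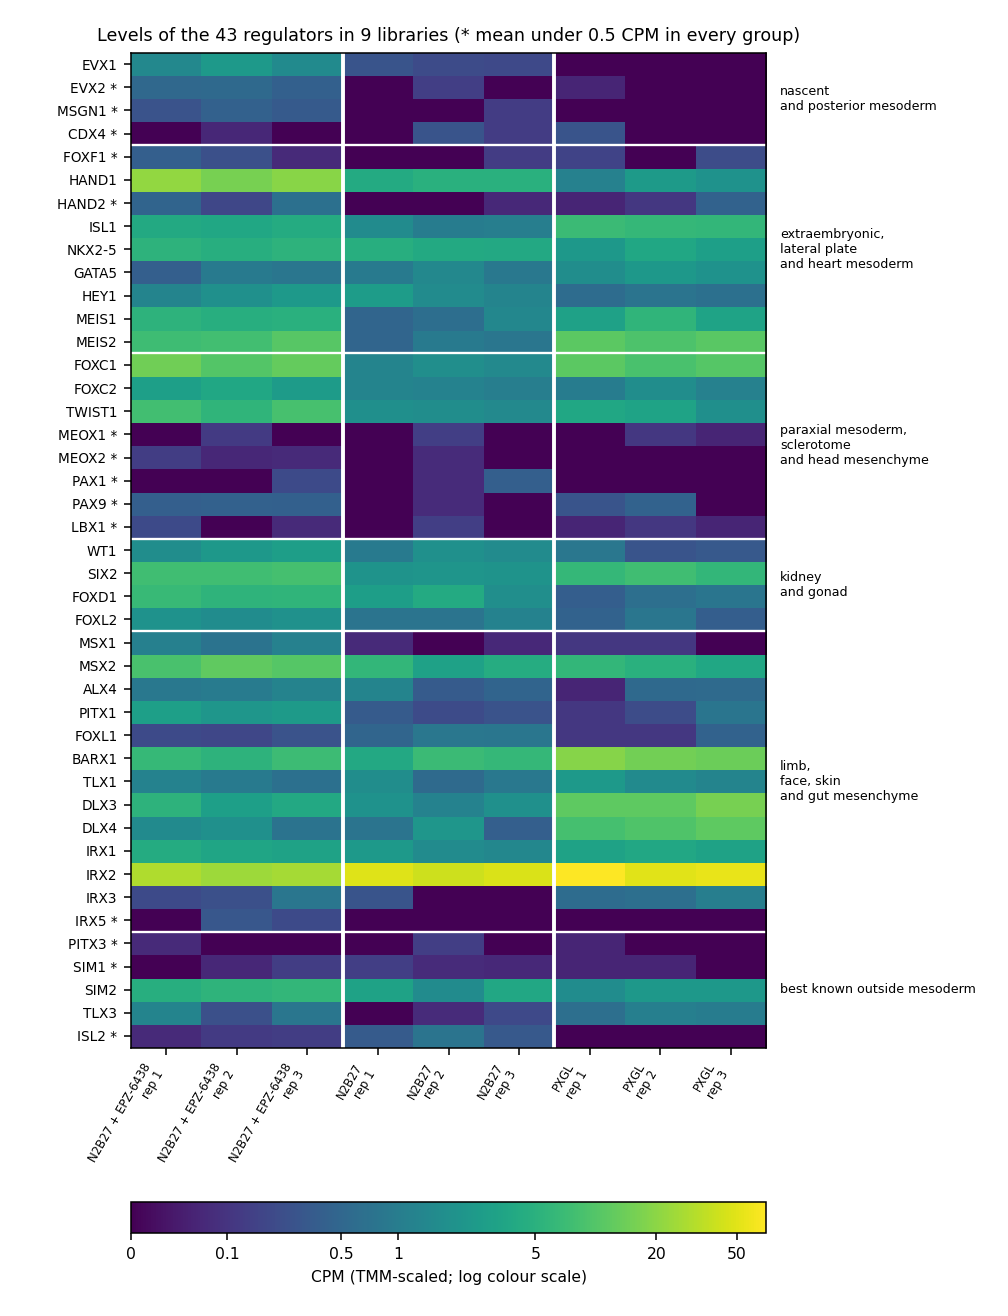
Level of each of the 43 regulators (one per line, grouped by role) in each of the 9 libraries, as CPM on a logarithmic colour scale offset by 0.05 CPM, with EPZ-6438 on the left, N2B27 in the middle and PXGL on the right. HAND1 is brighter with EPZ-6438 than elsewhere, IRX2 is brightest in PXGL, and the 14 genes under 0.5 CPM in every group (marked *) stay dark.

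Every one of the 43 regulators had at least 1 count in some library. At a mean of 0.5 CPM or more, 27 regulators were present with EPZ-6438, 24 in N2B27 and 23 in PXGL. No regulator was without a count in the EPZ-6438 group, 1 (IRX5) was in N2B27, and 6 (EVX1, MSGN1, MEOX2, PAX1, IRX5 and ISL2) were in PXGL. Per kilobase of annotated exon, the highest levels with EPZ-6438 were 10.8 CPM for HAND1, 7.86 CPM for IRX2, 4.54 CPM for MSX2 and 3.62 CPM for TWIST1. In N2B27 the order was IRX2 at 13.4, BARX1 at 3.21 and HAND1 at 2.67 CPM per kilobase. In PXGL it was IRX2 at 17.2, BARX1 at 8.90 and DLX3 at 4.77 CPM per kilobase. HAND1 thus headed the list only in the EPZ-6438 group, and IRX2 headed it in the other 2 groups.

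The promoters below are shown because they span the range from a regulator called higher with EPZ-6438 to one that stayed silent. FOXC1, HAND1 and SIX2 are the 3 regulators with the smallest adjusted p for a higher level with EPZ-6438 than in N2B27 among those with a single promoter window, and MSGN1 and CDX4 are the silent ones with the fewest CG dinucleotides. Each line holds the 250 bases before the transcription start from RefSeq (GRCh38.p14), 5′ to 3′ on the strand of the gene, with CG dinucleotides in capitals. The FOXC1 sequence is chr6:1609665-1609914 on the plus strand, that of HAND1 chr5:154478228-154478477 on the minus strand and that of SIX2 chr2:45009453-45009702 on the minus strand. The MSGN1 sequence is chr2:17816210-17816459 on the plus strand and that of CDX4 chrX:73446803-73447052 on the plus strand.
FOXC1: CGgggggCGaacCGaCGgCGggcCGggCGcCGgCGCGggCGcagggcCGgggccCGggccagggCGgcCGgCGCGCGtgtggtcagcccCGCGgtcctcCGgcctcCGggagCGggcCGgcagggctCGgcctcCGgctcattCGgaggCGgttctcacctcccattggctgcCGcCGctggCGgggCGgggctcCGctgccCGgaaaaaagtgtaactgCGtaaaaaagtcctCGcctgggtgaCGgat
HAND1: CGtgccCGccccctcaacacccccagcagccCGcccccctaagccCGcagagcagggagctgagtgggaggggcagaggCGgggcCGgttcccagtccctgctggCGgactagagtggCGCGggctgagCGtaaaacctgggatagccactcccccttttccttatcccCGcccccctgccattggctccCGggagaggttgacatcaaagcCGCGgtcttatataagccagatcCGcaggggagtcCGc
SIX2: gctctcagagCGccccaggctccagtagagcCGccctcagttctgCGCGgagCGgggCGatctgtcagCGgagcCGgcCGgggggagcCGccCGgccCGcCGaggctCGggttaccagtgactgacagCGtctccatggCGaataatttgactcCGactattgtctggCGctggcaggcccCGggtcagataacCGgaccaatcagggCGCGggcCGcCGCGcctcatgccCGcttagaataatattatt
MSGN1: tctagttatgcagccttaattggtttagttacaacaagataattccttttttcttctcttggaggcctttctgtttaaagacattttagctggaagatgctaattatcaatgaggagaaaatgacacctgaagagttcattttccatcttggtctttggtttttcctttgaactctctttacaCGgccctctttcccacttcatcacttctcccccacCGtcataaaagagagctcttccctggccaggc
CDX4: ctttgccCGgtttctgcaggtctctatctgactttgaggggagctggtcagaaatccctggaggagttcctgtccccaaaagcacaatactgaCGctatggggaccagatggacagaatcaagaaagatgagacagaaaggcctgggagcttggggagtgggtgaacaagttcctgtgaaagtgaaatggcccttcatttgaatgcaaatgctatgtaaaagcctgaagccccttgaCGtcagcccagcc
The 250 bases hold 37 CG dinucleotides for FOXC1, 16 for HAND1, 26 for SIX2, 2 for MSGN1 and 3 for CDX4. RefSeq windows of 300 bases, which add the first 50 bases after the start, were found for 26 of the 43 regulators (32 windows). Their median number of CG dinucleotides was 20 (range 3 to 40), against 14 over all 35116 windows of the table. Taking for each gene its window with the most CG dinucleotides, the 9 silent regulators with a window had 3 to 28 CG dinucleotides with a median of 16, and the 17 other regulators had 16 to 40 with a median of 28. Of the 9, 7 had more than the median of all windows, as did all 17 of the others. MSGN1 and CDX4 were the 2 exceptions, and 18.2% and 24.5% of all windows had fewer CG dinucleotides than theirs. For FOXC1, SIX2 and HAND1 those shares were 92.4%, 75.8% and 60.5%. The CG content of these windows is a description of sequence, and its part in the levels was not tested.

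**Figure D2:**
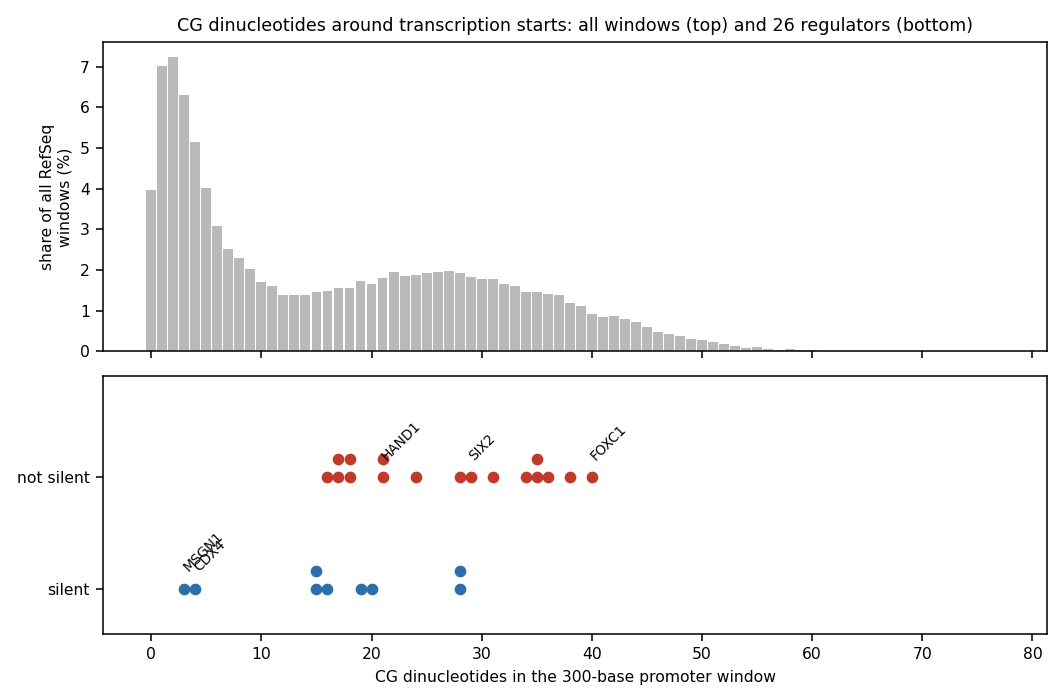
Number of CG dinucleotides in the 300 bases around the transcription start, for all RefSeq windows (top, share of windows in percent) and for the 26 regulators with a window (bottom, 1 point per gene, split by whether the gene was silent in all 3 groups). Names mark the genes whose sequences are given; MSGN1 and CDX4 sit at the low end with 3 and 4, and FOXC1 at 40.

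Of the 4 regulators of nascent and posterior mesoderm, only EVX1 could be tested, and it was higher with EPZ-6438 than in N2B27. It passed the count filter only through the EPZ-6438 group, so the filter itself favoured a higher level there. EVX1, a homeobox gene of the primitive streak, stood at 1.41, 2.37 and 1.56 CPM with EPZ-6438 (83 counts), at 0.279, 0.211 and 0.20 CPM in N2B27 (10 counts) and at 0 counts in all 3 PXGL libraries. All 3 groups were apart. The level with EPZ-6438 was 7.56-fold that in N2B27 (log2 2.92, SE 0.54, edgeR adjusted p = 9.85e-04) and at least 32.7-fold that in PXGL (adjusted p = 4.04e-06; 3 counts, summed over the 3 libraries, stand in for the 0). N2B27 was at least 4.17-fold higher than PXGL (adjusted p = 0.0046). EVX1 lies 42594 bases from HOXA13 on chromosome 7, and HOXA13 averaged 1.75 CPM with EPZ-6438, 0.230 CPM in N2B27 and 2.65 CPM in PXGL. Its paralog EVX2, 8978 bases from HOXD13 on chromosome 2, stayed just under the threshold for silence, at 0.537, 0.547 and 0.407 CPM with EPZ-6438 (23 counts), against 2 counts in N2B27 and 1 in PXGL. The ratio of EVX2 counts between EPZ-6438 and N2B27 was 10.9, with a 95% counting interval of 2.69 to 95.1 that covers counting error only. MSGN1, a regulator of presomitic mesoderm in the mouse, had 16 counts with EPZ-6438, 2 in N2B27 and 0 in PXGL, a ratio of 7.56 between EPZ-6438 and N2B27 (1.78 to 67.8). CDX4, a caudal-type gene of the posterior axis, had 1 count with EPZ-6438, 6 in N2B27 and 5 in PXGL.

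Among 9 regulators of extraembryonic, lateral plate and heart mesoderm, 7 were tested, and 4 were higher with EPZ-6438 than in N2B27 while none was lower. The background was 14.2% of all tested genes higher and 10.6% lower. HAND1, a bHLH factor of extraembryonic mesoderm and the early heart, stood at 21.5, 16 and 19.1 CPM with EPZ-6438, at 4.11, 4.92 and 4.87 CPM in N2B27 and at 1.15, 2.52 and 1.94 CPM in PXGL. The 3 groups did not overlap, and the order was the same as for EVX1. HAND1 was 4.06-fold higher with EPZ-6438 than in N2B27 (log2 2.02, SE 0.20, adjusted p = 1.05e-06), higher than in PXGL by a log2 difference of 3.33 (SE 0.22, adjusted p = 1.4e-09) and 2.47-fold higher in N2B27 than in PXGL (adjusted p = 2.09e-04).

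MEIS1, MEIS2 and ISL1 had another order, with N2B27 lowest. MEIS2, a TALE homeobox gene whose protein binds DNA together with HOX proteins, stood at 7.25, 7.72 and 10.6 CPM with EPZ-6438, at 0.487, 0.914 and 0.80 CPM in N2B27 and at 11.2, 9.15 and 10.9 CPM in PXGL. It was 11.5-fold higher with EPZ-6438 than in N2B27 (log2 3.52, SE 0.26, adjusted p = 4.21e-08) and 14.1-fold lower in N2B27 than in PXGL (adjusted p = 1.95e-09), and between EPZ-6438 and PXGL the log2 difference was -0.29 (SE 0.18, adjusted p = 0.181). Its paralog MEIS1 had 5.30, 4.62 and 4.95 CPM with EPZ-6438, 0.487, 0.633 and 1.40 CPM in N2B27 and 3.07, 5.64 and 3.33 CPM in PXGL. MEIS1 was 5.81-fold higher with EPZ-6438 than in N2B27 (adjusted p = 4.64e-05) and 4.71-fold lower in N2B27 than in PXGL (adjusted p = 4.62e-05), with overlapping libraries between EPZ-6438 and PXGL (log2 0.30, SE 0.28, adjusted p = 0.377). ISL1, a LIM homeobox gene of the second heart field and of motor neurons, stood at 4.03, 3.65 and 4.27 CPM with EPZ-6438, at 1.60, 0.984 and 1.07 CPM in N2B27 and at 6.91, 6.14 and 5.94 CPM in PXGL. All 3 differences of ISL1 were called, 3.26-fold higher with EPZ-6438 than in N2B27 (adjusted p = 7.64e-05), 1.59-fold lower with EPZ-6438 than in PXGL (adjusted p = 0.00904) and 5.18-fold lower in N2B27 than in PXGL (adjusted p = 2.79e-07).

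The 3 other tested regulators of this group did not pass the test between EPZ-6438 and N2B27. NKX2-5, a homeobox gene of the heart, averaged 5.18 ± 0.431 CPM with EPZ-6438, 4.20 ± 0.402 CPM in N2B27 and 2.99 ± 0.657 CPM in PXGL (SD, n = 3 each). It was 1.73-fold higher with EPZ-6438 than in PXGL (adjusted p = 0.00432), and the adjusted p was 0.322 against N2B27. GATA5, a zinc-finger gene of heart and endoderm, averaged 0.709 ± 0.270 CPM with EPZ-6438, 1.06 ± 0.301 CPM in N2B27 and 2.00 ± 0.331 CPM in PXGL, and was 2.79-fold lower with EPZ-6438 than in PXGL (adjusted p = 0.00459). HEY1, a target of Notch signalling, averaged 1.85 ± 0.583 CPM with EPZ-6438, 1.87 ± 0.756 CPM in N2B27 and 0.679 ± 0.0825 CPM in PXGL. It was higher than in PXGL in both N2B27 groups (adjusted p = 0.00689 with EPZ-6438 and 0.00667 without), and the difference between N2B27 and PXGL was no longer called without replicate 1 of N2B27 (adjusted p = 0.0549). HAND2 and FOXF1 stayed silent. HAND2, a gene of heart and limb, had 20 counts with EPZ-6438, 1 in N2B27 and 11 in PXGL, and its antisense neighbour HAND2-AS1 had 32 counts with EPZ-6438, 30 in N2B27 and 13 in PXGL. Without knowledge of strand, reads of these overlapping genes cannot be told apart. FOXF1, a gene of lateral plate and visceral mesoderm, had 11 counts with EPZ-6438, 2 in N2B27 and 7 in PXGL, and its ratio between EPZ-6438 and N2B27 was 5.20 (1.14 to 48.3).

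In the group of paraxial mesoderm, sclerotome and head mesenchyme, 3 of 8 regulators were tested and the other 5 stayed silent. All 3 were higher with EPZ-6438 than in N2B27, where the background was 14.2% of all tested genes higher. FOXC1, a forkhead gene of paraxial mesoderm and head mesenchyme, stood at 14.4, 10.1 and 12.7 CPM with EPZ-6438, at 1.25, 1.76 and 1.47 CPM in N2B27 and at 11.3, 8.71 and 10.3 CPM in PXGL. Libraries with EPZ-6438 overlapped those in PXGL and lay far above those in N2B27. The difference was 8.26-fold between EPZ-6438 and N2B27 (log2 3.05, SE 0.21, adjusted p = 2.01e-08), N2B27 was 6.75-fold lower than PXGL (adjusted p = 1.22e-08), and between EPZ-6438 and PXGL the log2 difference was 0.29 (SE 0.16, adjusted p = 0.137, which was 0.0499 without replicate 2 of EPZ-6438). FOXC2, its paralog, had 2.95, 3.65 and 2.64 CPM with EPZ-6438, 1.25, 1.2 and 1.07 CPM in N2B27 and 0.987, 1.70 and 1.17 CPM in PXGL. FOXC2 was 2.63-fold higher with EPZ-6438 than in N2B27 (adjusted p = 0.00365) and, unlike FOXC1, also called higher than in PXGL (2.40-fold, adjusted p = 0.00203). N2B27 and PXGL overlapped for FOXC2 (log2 -0.13, adjusted p = 0.756).

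TWIST1, a bHLH gene of head and limb mesenchyme that is known for its part in epithelial-mesenchymal transition, stood at 7.85, 5.66 and 8.54 CPM with EPZ-6438, at 1.81, 1.69 and 1.47 CPM in N2B27 and at 3.67, 3.34 and 1.78 CPM in PXGL. The EPZ-6438 libraries were above all others, while 1 PXGL library fell within the range of N2B27. TWIST1 was 4.42-fold higher with EPZ-6438 than in N2B27 (log2 2.14, SE 0.28, adjusted p = 2.5e-05) and higher than in PXGL by a log2 difference of 1.32 (SE 0.25, adjusted p = 2.94e-04). N2B27 was 1.77-fold lower than PXGL (adjusted p = 0.0255), a call that was lost without replicate 1 or 2 of PXGL or replicate 2 or 3 of N2B27 (adjusted p = 0.0723, 0.0824, 0.0587 and 0.0871). Among the silent genes of this group are the somite genes MEOX1, with 2 counts with EPZ-6438, 2 in N2B27 and 3 in PXGL, and MEOX2, with 4 counts with EPZ-6438, 1 in N2B27 and 0 in PXGL. PAX1, a gene of the sclerotome, had 3 counts with EPZ-6438, 7 in N2B27 and 0 in PXGL. PAX9, its paralog, had 19 counts with EPZ-6438, 1 in N2B27 and 13 in PXGL. The ratio of PAX9 counts between EPZ-6438 and N2B27, scaled to library size, was 18 (counting interval 2.86 to 746), and PAX9 overlaps SLC25A21, which had 101 counts with EPZ-6438, 99 in N2B27 and 76 in PXGL. LBX1, a gene of migrating muscle precursors, had 4 counts with EPZ-6438, 2 in N2B27 and 4 in PXGL.

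All 4 regulators of kidney and gonad were tested, and 2 of them were higher with EPZ-6438 than in N2B27, where the background was 14.2% higher. SIX2, which keeps nephron progenitors undifferentiated in the mouse, stood at 7.51, 7.48 and 8.13 CPM with EPZ-6438, at 2.02, 2.11 and 2.00 CPM in N2B27 and at 6.25, 7.62 and 5.94 CPM in PXGL. N2B27 was apart from both other groups, which overlapped each other. The level was 3.76-fold higher with EPZ-6438 than in N2B27 (log2 1.91, SE 0.19, adjusted p = 1.59e-06) and 3.23-fold lower in N2B27 than in PXGL (adjusted p = 1.41e-06), with a log2 difference of 0.22 (SE 0.17, adjusted p = 0.266) between EPZ-6438 and PXGL. FOXD1, a forkhead gene of the kidney stroma, had 6.58, 5.53 and 5.63 CPM with EPZ-6438, 2.85, 4.15 and 1.73 CPM in N2B27 and 0.384, 0.657 and 0.777 CPM in PXGL. It was 9.64-fold higher with EPZ-6438 than in PXGL (adjusted p = 4.57e-07) and 4.75-fold higher in N2B27 than in PXGL (adjusted p = 5.45e-05). Against N2B27 it was 2.03-fold higher with EPZ-6438 (adjusted p = 0.0138), and this call was lost without replicate 1 or 3 of N2B27 or replicate 1 of EPZ-6438 (adjusted p = 0.05, 0.07 and 0.0653).

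WT1 and FOXL2 did not pass the test between EPZ-6438 and N2B27. WT1, a zinc-finger gene of kidney, gonad and mesothelium, stood at 1.68, 2.31 and 2.85 CPM with EPZ-6438, at 0.905, 1.83 and 1.60 CPM in N2B27 and at 0.823, 0.274 and 0.333 CPM in PXGL. It was 4.72-fold higher with EPZ-6438 than in PXGL (adjusted p = 5.37e-04) and 3.00-fold higher in N2B27 than in PXGL (adjusted p = 0.00961), and the adjusted p between EPZ-6438 and N2B27 was 0.269. FOXL2, a forkhead gene of ovarian granulosa cells, had 1.95, 1.64 and 1.9 CPM with EPZ-6438, 0.766, 0.773 and 1.2 CPM in N2B27 and 0.439, 0.822 and 0.389 CPM in PXGL. EPZ-6438 and N2B27 were apart for FOXL2, with a log2 difference of 0.99 and an adjusted p of 0.0821, which was 0.0491 when only these groups were fitted. It was 3.29-fold higher with EPZ-6438 than in PXGL (adjusted p = 0.00201).

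**Figure D3:**
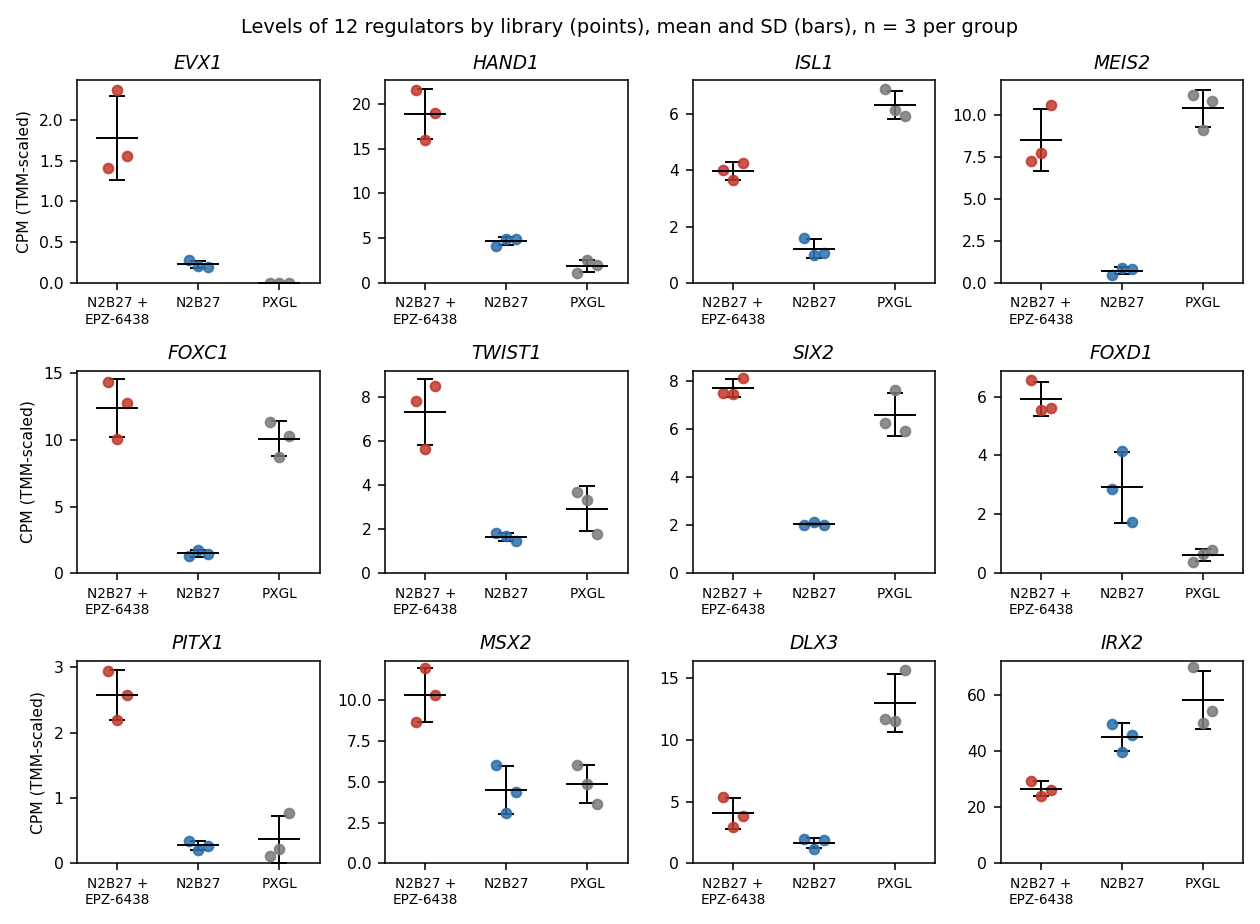
Level in CPM (linear axes from 0) of 12 regulators in each library, with EPZ-6438 on the left, N2B27 in the middle and PXGL on the right of each panel; points are libraries, the long dash is the mean and the whiskers are the SD (n = 3 each). HAND1 and EVX1 are highest with EPZ-6438, and MEIS2 and FOXC1 are low in N2B27 alone.

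Among the 13 regulators of limb, face, skin and gut mesenchyme, some were higher and some lower with EPZ-6438, against N2B27 as against PXGL. Of 11 tested, 5 were higher with EPZ-6438 than in N2B27, 1 was lower and 5 were not called, where the background was 14.2% higher and 10.6% lower. Against PXGL 3 were higher and 4 lower with EPZ-6438, near the background of 28.1% higher and 28.0% lower. In N2B27 against PXGL none was higher and 6 were lower, where the background was 27.3% higher and 28.7% lower. MSX1, a homeobox gene that responds to BMP in limb and face, stood at 1.14, 0.730 and 1.15 CPM with EPZ-6438 (46 counts), against 2 counts in N2B27 and 4 in PXGL. The ratio of counts was 21.7 against N2B27 (5.69 to 185, adjusted p = 0.0012) and 13.6 against PXGL (4.96 to 52.0, adjusted p = 4.33e-04). Its paralog MSX2 was already present without the inhibitor, with 8.65, 12 and 10.3 CPM with EPZ-6438, 6.06, 3.09 and 4.40 CPM in N2B27 and 6.03, 4.88 and 3.67 CPM in PXGL. MSX2 was 2.28-fold higher with EPZ-6438 than in N2B27 (adjusted p = 0.00114) and 2.12-fold higher than in PXGL (adjusted p = 6.07e-04), while N2B27 and PXGL overlapped. PITX1, a homeobox gene of the hindlimb, stood at 2.95, 2.19 and 2.58 CPM with EPZ-6438, at 0.348, 0.211 and 0.267 CPM in N2B27 and at 0.110, 0.219 and 0.777 CPM in PXGL. All PITX1 values with EPZ-6438 lay above those of the other groups, 9.10-fold higher than in N2B27 (log2 3.19, SE 0.55, adjusted p = 3.99e-04) and 6.87-fold higher than in PXGL (adjusted p = 1.9e-04). MSX1 and PITX1 passed the count filter only through the EPZ-6438 group, which favoured a higher level there.

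DLX3, DLX4, BARX1 and IRX2 were highest in PXGL. DLX3, a homeobox gene of placenta and skin, stood at 5.37, 2.92 and 3.86 CPM with EPZ-6438, at 1.95, 1.2 and 1.87 CPM in N2B27 and at 11.7, 11.5 and 15.7 CPM in PXGL. It was 2.40-fold higher with EPZ-6438 than in N2B27 (adjusted p = 0.00266), 3.21-fold lower with EPZ-6438 than in PXGL (adjusted p = 5.9e-06) and 7.70-fold lower in N2B27 than in PXGL (adjusted p = 3.82e-08). DLX4 lies 15046 bases from DLX3 on chromosome 17 and had 1.54, 1.82 and 0.746 CPM with EPZ-6438, 0.766, 2.18 and 0.400 CPM in N2B27 and 8.17, 9.59 and 11.5 CPM in PXGL. The N2B27 groups overlapped for DLX4 (log2 0.32, adjusted p = 0.67), and both were below PXGL, 7.02-fold with EPZ-6438 (adjusted p = 8.97e-06) and 8.77-fold in N2B27 (adjusted p = 4.59e-06). BARX1, a homeobox gene of stomach mesenchyme, had 6.44, 5.41 and 7.05 CPM with EPZ-6438, 3.97, 7.03 and 6.13 CPM in N2B27 and 19.0, 14.9 and 13.6 CPM in PXGL. BARX1 was 2.51-fold lower with EPZ-6438 than in PXGL (adjusted p = 1.66e-05) and 2.77-fold lower in N2B27 than in PXGL (adjusted p = 6.77e-06), and between EPZ-6438 and N2B27 the adjusted p was 0.676.

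IRX2, a patterning homeobox gene, was the only regulator called lower with EPZ-6438 than in N2B27. It stood at 29.4, 24.1 and 26.4 CPM with EPZ-6438, at 49.9, 39.9 and 45.9 CPM in N2B27 and at 70.1, 50.2 and 54.6 CPM in PXGL, and the 3 groups did not overlap. IRX2 was 1.70-fold lower with EPZ-6438 than in N2B27 (log2 -0.77, SE 0.13, adjusted p = 2.43e-04) and 2.19-fold lower than in PXGL (adjusted p = 8.44e-07). In N2B27 it was 1.29-fold lower than in PXGL (adjusted p = 0.0148, and 0.0882 without replicate 2 of N2B27). IRX1, 844392 bases from IRX2 on chromosome 5, went the other way against N2B27, with 4.29, 3.53 and 3.19 CPM with EPZ-6438, 2.44, 1.62 and 1.40 CPM in N2B27 and 3.24, 3.83 and 3.17 CPM in PXGL. IRX1 was 2.02-fold higher with EPZ-6438 than in N2B27 (adjusted p = 0.0101), a call lost without replicate 3 of N2B27 (0.0522) or replicate 1 of EPZ-6438 (0.0512), and it was 1.88-fold lower in N2B27 than in PXGL (adjusted p = 0.00778). IRX3 averaged 0.419 ± 0.342 CPM with EPZ-6438, 0.0928 ± 0.161 CPM in N2B27 and 0.772 ± 0.247 CPM in PXGL, and only the difference between N2B27 and PXGL was called (adjusted p = 0.00957). All 4 IRX3 counts of N2B27 were in replicate 1, without which the group is at 0, so the fold depends on that library; the ratio of counts between N2B27 and PXGL was 0.119 (0.0310 to 0.328). IRX5, 644099 bases from IRX3 on chromosome 16, stayed silent with 8 counts with EPZ-6438, 0 in N2B27 and 0 in PXGL.

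ALX4 and TLX1 were not called in any comparison. ALX4, a gene of limb and skull, averaged 1.02 ± 0.179 CPM with EPZ-6438, 0.691 ± 0.491 CPM in N2B27 and 0.386 ± 0.287 CPM in PXGL. TLX1, which is needed for the spleen in the mouse, averaged 0.933 ± 0.265 CPM with EPZ-6438, 1.03 ± 0.573 CPM in N2B27 and 1.76 ± 0.627 CPM in PXGL, and its adjusted p between N2B27 and PXGL was 0.147, or 0.0412 without replicate 1 of N2B27. FOXL1, a gene of gut mesenchyme, had too few counts to be tested, with 10 with EPZ-6438, 31 in N2B27 and 12 in PXGL. The ratio of FOXL1 counts between EPZ-6438 and N2B27 was 0.305 (0.133 to 0.638; adjusted p = 0.155 in a fit without a count filter), which is opposite in direction to FOXC2 only 6640 bases away on chromosome 16. FOXF1 lies 51411 bases from FOXC2 in the same cluster, so the 3 forkhead neighbours comprised 1 gene called higher, 1 silent gene and 1 untested gene with fewer counts.

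Of the 5 regulators best known outside mesoderm, SIM2 and TLX3 were tested. Both were higher with EPZ-6438 than in N2B27, where the background was 14.2% of all tested genes higher. SIM2, a bHLH-PAS gene, stood at 4.70, 5.47 and 6.03 CPM with EPZ-6438, at 3.20, 1.62 and 3.80 CPM in N2B27 and at 1.65, 2.36 and 2.33 CPM in PXGL. It was 1.87-fold higher with EPZ-6438 than in N2B27 (adjusted p = 0.0227, and 0.0994, 0.066 and 0.0888 without replicate 2 of N2B27 or replicates 2 or 3 of EPZ-6438) and higher than in PXGL by a log2 difference of 1.35 (adjusted p = 5.28e-04). TLX3, a gene of sensory neurons, had 1.27, 0.243 and 0.814 CPM with EPZ-6438, 0, 0.0703 and 0.20 CPM in N2B27 and 0.658, 1.10 and 1.0 CPM in PXGL. The count ratio of TLX3 between EPZ-6438 and N2B27 was 8.27 (2.96 to 32.0, adjusted p = 0.0159), and the call was lost without replicate 1 or 2 of N2B27 or replicate 1 of EPZ-6438 (0.07, 0.0616 and 0.0934); in N2B27 it was 9.31-fold lower than in PXGL (adjusted p = 0.00286). PITX3, SIM1 and ISL2 were silent. PITX3 of the lens and dopamine neurons had 1 count with EPZ-6438, 2 in N2B27 and 1 in PXGL, and SIM1 of the hypothalamus had 3 counts with EPZ-6438, 4 in N2B27 and 2 in PXGL. ISL2, a motor neuron gene, was highest in N2B27, with 5 counts with EPZ-6438, 21 in N2B27 and 0 in PXGL.

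**Figure D4:**
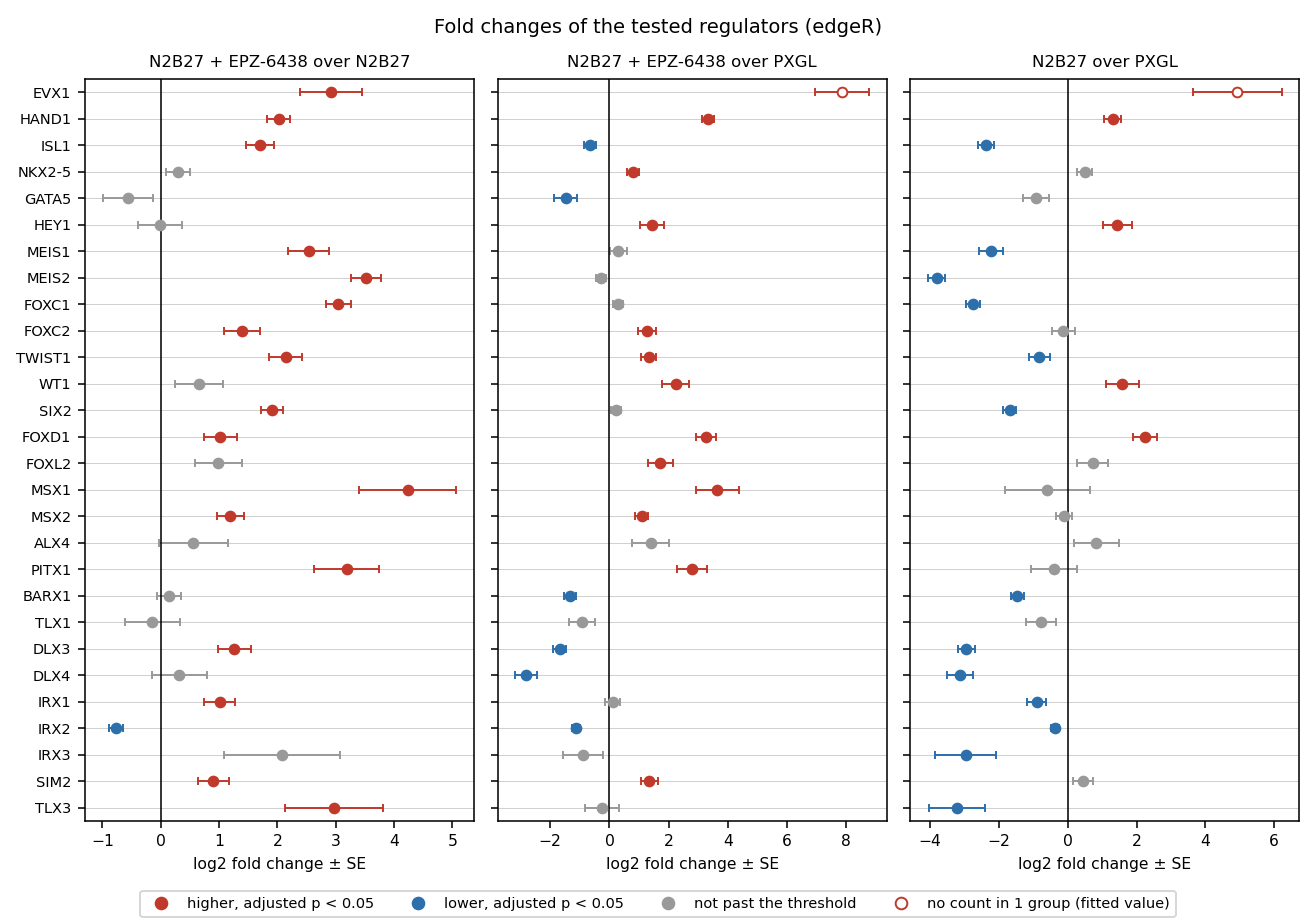
Log2 fold change with its standard error for the 28 tested regulators, for EPZ-6438 against N2B27, EPZ-6438 against PXGL and N2B27 against PXGL; red points were called higher and blue points lower at an adjusted p under 0.05, grey points were not called, and open points have no count in 1 group. In the first comparison 17 red points lie to the right of 0 and only IRX2 is blue, while in the last 13 points are blue.

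The silent set therefore comprised EVX2, MSGN1, CDX4, FOXF1, HAND2, MEOX1, MEOX2, PAX1, PAX9, LBX1, IRX5, PITX3, SIM1 and ISL2, 14 in all, none of which passed the count filter. Their total counts over 9 libraries ran from 4 (PITX3) to 33 (PAX9). Silence was defined by a mean under 0.5 CPM in each group, and EVX2 at 0.497 CPM with EPZ-6438 lay just inside this limit, while FOXL1 at 0.711 CPM in N2B27 and IRX3 at 0.772 CPM in PXGL lay just outside. At a limit of 0.2 CPM, 8 genes would be silent. How many of all genes lie under these limits was not counted, so 14 is not set against a background. When all genes were fitted without a count filter, HAND2 and PAX9 were called higher with EPZ-6438 than in N2B27 (adjusted p = 0.0384 and 0.0451), EVX2 and MSGN1 higher with EPZ-6438 than in PXGL (adjusted p = 0.00966 and 0.008), and ISL2 higher in N2B27 than in PXGL (adjusted p = 0.00182). At this depth, a level under the limit does not show that a gene is off in every cell.

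Genes of the same families and pathways that are not among the 43 are given by whole lists. The background between EPZ-6438 and N2B27 was 14.2% of all tested genes higher and 10.6% lower. These lists were chosen with earlier results of these data known, and a low gene is tested if 1 group alone is high enough. Of 27 paralogs of the regulators, 16 were tested, and 8 were higher and none was lower with EPZ-6438 than in N2B27. GATA6 averaged 7.97 CPM with EPZ-6438 and 0.731 CPM in N2B27 (10.8-fold, adjusted p = 3.34e-07), where its paralog GATA5 was not called. CDX1 averaged 13.1 CPM with EPZ-6438 and 2.95 CPM in N2B27 (4.44-fold, adjusted p = 4.27e-07), and CDX2 had 112 counts with EPZ-6438 and 2 in N2B27, while CDX4 was silent. Of 12 genes of nascent mesoderm and the primitive streak, 8 were tested and 6 were higher with EPZ-6438 than in N2B27, and none was lower. TBXT (brachyury), which mesoderm formation needs, averaged 65.7 CPM with EPZ-6438 and 5.81 CPM in N2B27 (11.3-fold, adjusted p = 3.08e-10), MIXL1 65.3 CPM with EPZ-6438 and 13.1 CPM in N2B27 (4.98-fold, adjusted p = 1.51e-10), and SP5, a target of WNT signalling, 23.3 CPM with EPZ-6438 and 5.28 CPM in N2B27 (4.41-fold, adjusted p = 9.62e-09). SNAI1, a repressor of E-cadherin, was at 10.9 CPM with EPZ-6438 and 5.95 CPM in N2B27 (1.83-fold, adjusted p = 3.11e-04). All 16 mesoderm-inducing ligands and BMP targets were tested, and 12 were higher and 1 lower with EPZ-6438 than in N2B27. LEFTY2, an inhibitor and target of NODAL, averaged 845 CPM with EPZ-6438 and 379 CPM in N2B27 (2.23-fold, adjusted p = 3.54e-09). WNT5A averaged 16.2 CPM with EPZ-6438 and 4.03 CPM in N2B27 (4.01-fold, adjusted p = 1.71e-07), BMP7 38.4 CPM with EPZ-6438 and 13.0 CPM in N2B27 (2.95-fold, adjusted p = 6.33e-08), and BMP2 4.08 CPM with EPZ-6438 and 0.251 CPM in N2B27 (15.7-fold, adjusted p = 5.96e-07).

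Between EPZ-6438 and N2B27, genes that mark differentiated mesoderm did not move as a block. The background in this comparison was 14.2% of all tested genes higher and 10.6% lower. For EPZ-6438 against PXGL it was 28.1% higher and 28.0% lower. Of 12 markers of mesenchyme or fibroblasts, 6 were tested between EPZ-6438 and N2B27, and 2 were higher (PRRX1 and COL6A3) and 2 lower (COL1A1 and COL1A2). PRRX1, a homeobox gene of limb mesenchyme, averaged 1.25 CPM with EPZ-6438 and 0.114 CPM in N2B27 (10.2-fold, adjusted p = 0.00211). Both PRRX1 and COL6A3 passed the count filter only through the EPZ-6438 group. The summed level of these 12 markers was 52.1 to 54.6 CPM with EPZ-6438, 60.4 to 61.2 CPM in N2B27 and 20.1 to 25.6 CPM in PXGL, with DCN and FAP at 0 counts with EPZ-6438. Against PXGL, 5 of the 6 tested were higher with EPZ-6438 and none was lower. Of 8 cardiomyocyte markers 3 were tested, and TNNT2 and ACTC1 were lower with EPZ-6438 than in N2B27, 2.76-fold and 2.82-fold (adjusted p = 0.00168 and 0.00434). TNNT2 averaged 1.53 CPM with EPZ-6438 and 0.239 CPM in PXGL, and ACTC1 1.23 and 0.0185 CPM. Against PXGL, 2 of the 3 tested were higher with EPZ-6438 and none was lower. In CPM, the 8 summed to 4.26 to 4.83 with EPZ-6438, 9.05 to 10.8 in N2B27 and 2.19 to 2.55 in PXGL. The cardiac myosins MYH6 and MYH7 and the muscle regulators MYF5 and MYOG had no count in any library. Other genes of the 6 skeletal muscle markers had counts. ACTA1 averaged 32.9 CPM with EPZ-6438, 48.6 CPM in N2B27 and 1.4 CPM in PXGL. It was 1.48-fold lower with EPZ-6438 than in N2B27 (adjusted p = 2.48e-04). MYH3 had 113 counts with EPZ-6438, 79 in N2B27 and 129 in PXGL. Summed levels of 6 hypoblast markers were 56.2 to 61.7 CPM with EPZ-6438, 28.8 to 29.2 CPM in N2B27 and 38.7 to 47.5 CPM in PXGL. Those of 6 amnion markers were 12.3 to 18 CPM with EPZ-6438, 8.01 to 9.54 CPM in N2B27 and 3.02 to 4.83 CPM in PXGL, with VTCN1 at 0 throughout. Those of 8 endothelial and blood markers were 65.8 to 68.2 CPM with EPZ-6438, 49.9 to 52.7 CPM in N2B27 and 53.5 to 56.7 CPM in PXGL. Between EPZ-6438 and N2B27, 5 of these 8 were tested, and RUNX1 (22.2 CPM with EPZ-6438 and 4.24 CPM in N2B27) and CDH5 were higher while KDR was lower (adjusted p = 0.00312). Against PXGL, RUNX1 and KDR were higher with EPZ-6438, and VWF and TEK were lower, 2.64-fold and 4.13-fold. Of the hypoblast markers 3 of 4 tested were higher with EPZ-6438 than in N2B27, and of the amnion markers 2 of 4 (TFAP2A and IGFBP7), with none lower. Against PXGL, 2 of these 4 hypoblast markers were higher with EPZ-6438 and 1 was lower. Of the 4 amnion markers 3 were higher and none was lower. HNF4A of the hypoblast averaged 21.0 CPM with EPZ-6438 and 29.4 CPM in PXGL, and TFAP2A 1.54 and 2.74 CPM. The hypoblast, amnion, and endothelial and blood sums were highest with EPZ-6438, as were HAND1, TWIST1 and MSX2, though not every marker was. The endothelial and blood sum was highest only through RUNX1, which was at 10.7 CPM in PXGL. In CPM, 6 neural markers summed to 6.03 to 9.49 with EPZ-6438, 1.9 to 2.16 in N2B27 and 1.04 to 1.92 in PXGL. This neural sum was also highest with EPZ-6438. The 7 kidney and gonad markers summed to 4.56 to 4.8 with EPZ-6438, 2.65 to 4.87 in N2B27 and 7.95 to 8.22 in PXGL. The part of cells of these types in the levels of the 43 regulators was not tested.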

How the data were processed

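Per the labels' protocols, RNA was taken up in Trizol and ribosomal RNA was depleted before library construction, although the molecule label reads polyA RNA; this was not settled. The authors deposited expected counts, which are estimates and can hold fractions, for each gene symbol. The submitters' processing notes list Trim Galore, STAR 2.7.6a, DESeq2 and the hg38 genome. They name no counting program, annotation or strand setting, so the split of reads between overlapping genes is uncertain.

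Counts were rounded to whole numbers. edgeR's filterByExpr kept 15179 of the 22640 genes that had a count. A single model with a term per group held all 9 libraries (edgeR 4.0.16, TMM, robust quasi-likelihood, R 4.3.3), and p-values were adjusted over all tested genes. The steps were tested on simulated data. Replicate pairs differed by more than sampling noise, the chi-square being at least 2.57 per degree of freedom over genes with 20 or more counts in a pair. Each library entered the fit as 1 sample, but this spread cannot show whether the libraries came from separate cultures. Gene positions, exon lengths and overlaps came from GENCODE 29, and promoter sequences from RefSeq (GRCh38.p14).

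Alternatives were DESeq2's size factors and test (DESeq2 1.42.0), other filters, a fit of the compared groups alone, a replicate block, a 1.5-fold threshold and leaving out each library. The regulators and lists were chosen with earlier results of these data known. All 43 regulators are accounted for, every called or silent one is named, and of other lists up to 4 genes with the smallest adjusted p between EPZ-6438 and N2B27; 1 gene under this rule is not reported here. Counting intervals are exact 95% intervals and cover counting error only.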

Additional observations from a re-analysis of the deposited data

How the results depend on the processing

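The number of regulators called between EPZ-6438 and N2B27 was 18 with DESeq2's test, its size factors, the replicate block and the compared groups alone, 17 with a filter of 1 CPM in 3 libraries, 20 with no filter, and 11 (11 higher, 0 lower) when over 1.5-fold was required. Leaving out 1 library gave 15 to 18 (14 to 17 higher); between EPZ-6438 and PXGL it gave 19 to 20, and between N2B27 and PXGL 17 to 20. The replicate block gave 18, 19 and 18 regulators in the 3 comparisons and changed none of these counts. Libraries of the same replicate number did not deviate together (correlations of -0.026 to 0.037). No pairing by number was seen, but with 3 libraries per group this cannot exclude a shared culture or batch. The silent regulators numbered 8 at 0.2 CPM, 17 at 1 CPM and 13 to 14 without any 1 library. Over all genes, the calls between EPZ-6438 and N2B27 were 3752, and 5641 with these groups alone, 724 with the 1.5-fold requirement, 3696 with the block and 2762 to 5770 without 1 library, the highest without replicate 1 of PXGL; the cause was not tested. The 1.5-fold requirement left 2928 genes for EPZ-6438 against PXGL and 2956 for N2B27 against PXGL.

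Directions turned only for regulators that were not called. Without 1 library at a time, the log2 difference between EPZ-6438 and N2B27 ran from -0.262 to 0.354 for HEY1, -0.067 to 0.31 for BARX1, -0.439 to 0.374 for TLX1 and -0.091 to 1.24 for DLX4. Between EPZ-6438 and PXGL it ran from -0.023 to 0.194 for IRX1 and -0.811 to 0.187 for TLX3, and between N2B27 and PXGL from -0.289 to 0.119 for FOXC2, -0.369 to 0.105 for MSX2 and -0.834 to 0.713 for PITX1. Some regulators were called in only 1 alternative without a library: IRX3 between EPZ-6438 and N2B27 (adjusted p = 0.0328), MEIS2 and FOXC1 between EPZ-6438 and PXGL (0.0487 and 0.0499), and NKX2-5, TLX1 and SIM2 between N2B27 and PXGL (0.0305, 0.0412 and 0.03); GATA5 was called between N2B27 and PXGL in 4 alternatives (0.0391 to 0.0426). Depth limits the silent regulators, which had 4 to 33 counts over 9 libraries.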
